A study of Mus musculus with 3 samples.

Results

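Mitochondrial ribosomal protein genes are the nuclear genes that encode the protein part of the ribosome inside mitochondria. They were taken here as all protein-coding mouse genes with a GENCODE M21 symbol that starts with Mrpl or Mrps, and 78 genes of the 55536 mouse genes in the deposited tables met that rule, 78 of 22028 protein-coding genes. The study sequenced polyadenylated RNA of activated regulatory T cells, the CD4+ lymphocytes that carry the transcription factor Foxp3 and restrain other immune cells, from a male mouse of 3 weeks. It consists of 3 libraries, which the labels call technical replicates 1, 2 and 3 of 1 biological replicate, so there is a single group with no control, genotype or treatment to set against it. How the cells were sorted and activated, and whether several animals were pooled, is not given in the sources used here. Every spread below is therefore a spread between libraries of 1 biological replicate and not between animals.

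The mitochondrial genome encodes a small set of respiratory chain subunits, and all of them are translated by this dedicated ribosome. Its large and small subunits hold RNA made inside the organelle, while every protein is made in the cytosol from nuclear genes and imported. Some of the proteins descend from those of the bacterial ancestor, and others were added later and are found only in mitochondrial ribosomes. In T cells, mitochondrial translation and respiration are known to increase after activation.

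The libraries held 30362256, 28419259 and 31959927 reads assigned to mouse genes. All 7 markers of regulatory T cells in a marker list were expressed, with Foxp3 at 134.52, 149.64 and 106.32 TPM in libraries 1, 2 and 3 (TPM, a share of all transcripts that is corrected for their length). The libraries were not alike in everything. All 7 erythroid genes listed were highest in library 1, with a median of 1043, 81.8 and 51.3 TPM, and 10 of 11 proliferation genes were highest there too. Of 5 B cell markers 4 were highest in library 3, where their median was 5.98 TPM, against 2.62 and 1.67 TPM in libraries 1 and 2. Of 4 markers of CD8 T and NK cells, Cd8a, Cd8b1 and Klrb1c were highest in library 3 and Ncr1 was listed at 0 in all libraries, with a median of 3.33 TPM in library 3, against 2.91 and 1.21 TPM in libraries 1 and 2. Of 6 myeloid markers 5 were highest in library 1. The part of such other cells in the differences between libraries given below was not tested.

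All 78 mitochondrial ribosomal protein genes were expressed at 1 TPM or more in every library. Their median level was 64.18, 63.05 and 73.3 TPM in libraries 1, 2 and 3, a mean of 66.84 ± 5.62 TPM (SD, 3 libraries). That was above the median of all 10601 detected protein-coding genes (29.68 ± 2.92 TPM) and below that of the nuclear respiratory chain genes (207.0 ± 11.2 TPM) and the 81 genes of the cytosolic ribosome (791.2 ± 97.2 TPM). The gap to other genes was smaller at like length. For 1532 other detected protein-coding genes between the quartiles of member transcript lengths, the median was 44.82 ± 0.736 TPM. The 13 messenger RNAs that mitochondria make themselves, which the ribosome translates, had a median of 1357 ± 66.2 TPM. Per length, the difference between the median of the cytosolic and of the mitochondrial ribosomal protein genes was 3.54 ± 0.085 on the log2 scale, and it held in each library. In all, the 78 genes took 0.301%, 0.293% and 0.371% of the gene reads.

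By their quartiles the genes kept within a narrower range of levels than detected protein-coding genes as a whole, and so did other mitochondrial gene sets. Their mean levels ran between 6.487 TPM for Mrpl23 and 198.2 TPM for Mrpl52, and 77 of 78 lay between 10 and 200 TPM. The upper quartile was 2.24 times the lower, a ratio that was 6.86 over detected protein-coding genes and 3.32 over the cytosolic ribosomal protein genes. It was close to that of the members over the nuclear respiratory chain genes, at 2.34, and over 11 mitochondrial translation factors, at 2.2. Over 17 mitochondrial aminoacyl-tRNA synthetases it was 3.06, and over the 13 mitochondrial messenger RNAs 5.05. The SD of the log2 mean level was 0.917 over the members and 1.9 over detected protein-coding genes. It was 1.07 over the translation factors, but 2.19 over the respiratory chain genes, of which 78 of 84 were detected. Shorter members tended to be higher. Across the 78 genes, which share the same libraries, the Spearman correlation of mean TPM with the length of the main transcript was -0.576. It is given as a description, since genes are not independent replicates. The main transcript was the one with the highest mean TPM, and TPM divides reads by length, so both values are coupled by construction.

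**Figure D1:**
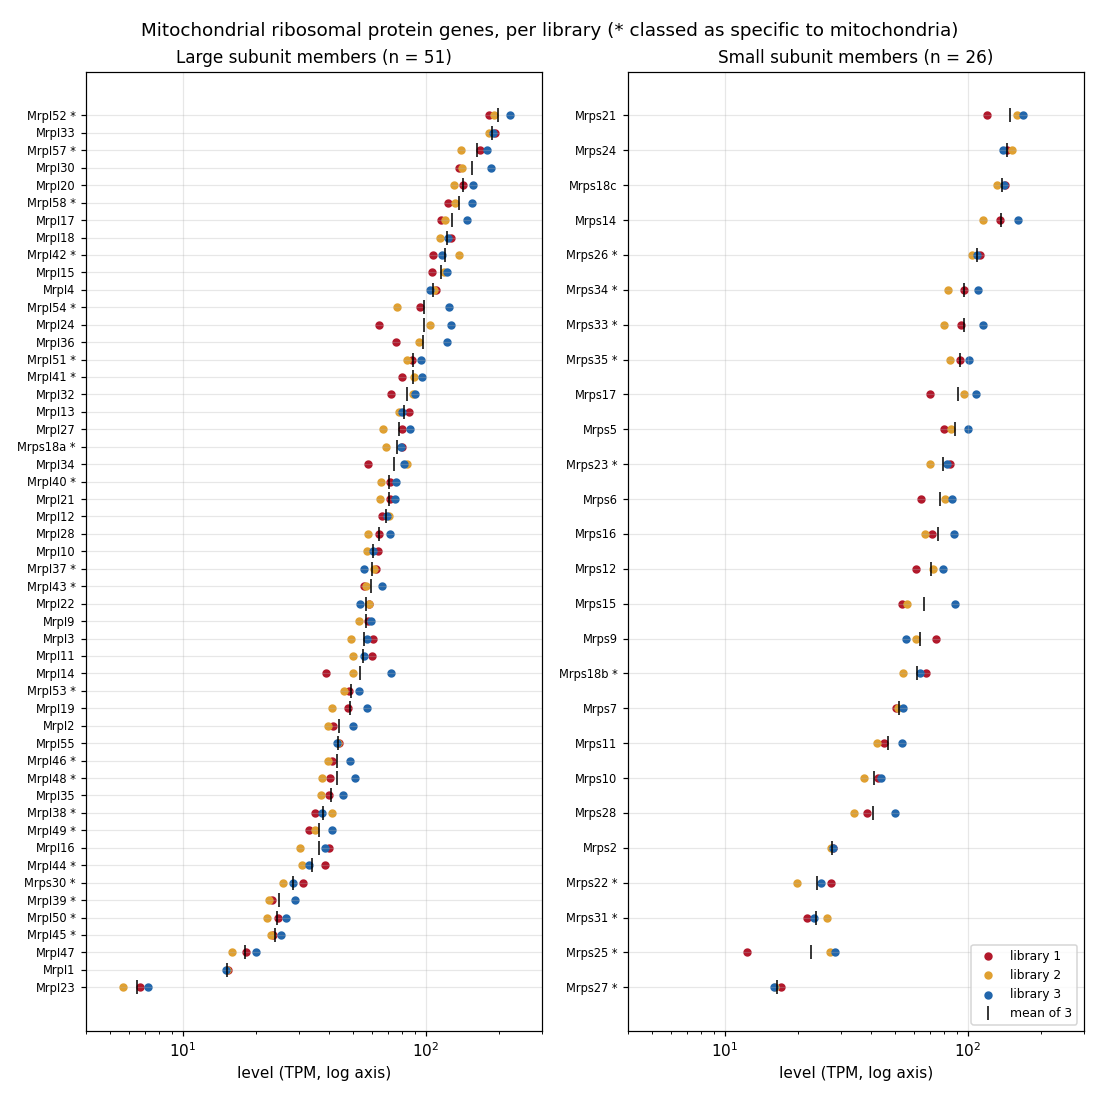
Level of each mitochondrial ribosomal protein gene in TPM on a log axis, large subunit on the left and small subunit on the right, with 1 point for each of the 3 libraries and a tick at their mean; genes classed as specific to mitochondria carry an asterisk. All but Mrpl23 lie between 10 and 200 TPM by their mean, and the points of libraries 1, 2 and 3 lie close together for most genes and far apart for Mrpl24, Mrpl14, Mrps15 and Mrps25. Mrps36, which belongs to neither subunit, is not drawn.

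Of the 78 genes, 51 encode proteins of the large subunit and 26 of the small subunit in current models of the ribosome. Mrps30 and Mrps18a are among the 51, since their proteins sit in the large subunit despite their names. Mrps36, now known as a part of the α-ketoglutarate dehydrogenase complex, belongs to neither subunit and had 79.12, 78.97 and 83.13 TPM in libraries 1, 2 and 3. Large subunit genes had a median of 63.4 ± 5.52 TPM and small subunit genes a median of 73.89 ± 9.15 TPM. The log2 ratio of large to small subunit medians was -0.14, -0.22 and -0.28 in libraries 1, 2 and 3, with a mean of -0.21 ± 0.069, which is larger than the spread between libraries by the rule used here (the same sign in every library and a mean beyond 2 SD). Taken as a mean over genes on the log2 scale instead of a median, it shrank to -0.05 ± 0.021. No sign-flip test over 3 libraries can give a p below 0.25, so no test was made.

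Members were also classed, after the nomenclature of ribosomal proteins, as shared with bacteria or as specific to mitochondria. By their medians these classes differed less clearly. The 31 genes specific to mitochondria had a median of 60.96 ± 3.71 TPM and the 46 shared with bacteria 68.87 ± 6.99 TPM. The log2 ratio of the specific to the shared medians was -0.04, -0.20 and -0.26 in libraries 1, 2 and 3, and its mean of -0.17 ± 0.114 was within 2 SD. Taken as a mean over genes on the log2 scale instead, it was -0.24 ± 0.026 and passed that rule. The specific genes were the more spread of both classes, with an upper quartile 3.02 times the lower, against 1.97 times for the shared ones. All but 1 of the 5 lowest small subunit genes were specific to mitochondria.

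At the top of the large subunit stood Mrpl52, a protein without a bacterial relative, with 181.75, 191.46 and 221.47 TPM in libraries 1, 2 and 3. Mrpl33, the counterpart of a small bacterial protein, followed with 192.94, 181.88 and 189.26 TPM, then Mrpl57 with a mean of 162.3 ± 20.5 TPM. Mrpl30 and Mrpl20, both shared with bacteria, had means of 155.0 ± 27.0 and 142.9 ± 12.8 TPM. Neighbours in this order mostly overlapped in their library values, and Mrpl30 in library 3 exceeded Mrpl52 in library 1, so that the order among the highest is not fixed beyond the spread. At the low end stood Mrpl50, Mrpl45, Mrpl47, Mrpl1 and Mrpl23. Mrpl1, whose bacterial counterpart forms the mobile stalk beside the exit of transfer RNA, had 15.35, 15.24 and 15.0 TPM, an SD of 0.179 TPM. Mrpl47 followed at 17.98 ± 2.02 TPM and Mrpl45, which in mammals ties the ribosome to the inner membrane, at 23.997 ± 1.19 TPM.

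Among small subunit genes Mrps21 was highest by its mean, with 120.26, 159.14 and 169.51 TPM in libraries 1, 2 and 3. Mrps24 had 145.08, 152.2 and 139.49 TPM, and so exceeded Mrps21 in library 1 only. Mrps18c and Mrps14 stood at 138.2 ± 5.41 and 137.5 ± 22.3 TPM, within the range of Mrps21, and Mrps26 came next at 108.8 ± 4.19 TPM. The lowest were Mrps2, Mrps22, Mrps31, Mrps25 and Mrps27. Mrps27, a protein of the pentatricopeptide repeat family that is known to bind RNA, had 17.01, 16.06 and 15.92 TPM. No library value of Mrps27 reached that of any other small subunit gene but Mrps25, which had 12.33 TPM in library 1 and 27.0 and 28.56 TPM in libraries 2 and 3.

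The parts of the ribosome were described next, by the members' places in it. The stalk, where Mrpl10 holds copies of Mrpl12 beside Mrpl11 and where translation factors dock, was built from genes of like level. Mrpl12 had a mean of 68.7 ± 2.17 TPM, Mrpl10 60.5 ± 3.34 TPM and Mrpl11 55.1 ± 4.91 TPM. The log2 ratio of Mrpl12 to Mrpl10 was 0.06, 0.30 and 0.19 in libraries 1, 2 and 3, with a mean of 0.18 ± 0.122. That of Mrpl12 to Mrpl11 was 0.15, 0.49 and 0.32, with a mean of 0.32 ± 0.17. Mrpl12 was thus the higher in every library, while both means were within 2 SD. Several copies of the Mrpl12 protein are known to sit on each ribosome.

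Around the exit of the nascent chain the levels were uneven. The 8 genes there had a median of 29.65 ± 2.28 TPM and ran from the lowest member, Mrpl23, through Mrpl47, Mrpl45, Mrpl39 (24.9 ± 3.42 TPM), Mrpl44 (34.1 ± 3.84 TPM) and Mrpl22 (56.9 ± 2.77 TPM) to Mrpl24 (98.3 ± 31.6 TPM) and Mrpl17 (128.1 ± 17.5 TPM). The central protuberance, a knob on the large subunit that touches the small one, had 8 genes with a median of 58.5 ± 4.42 TPM. Mrpl58, a former release factor that can free stalled chains, was its highest at 136.8 ± 16.3 TPM, followed by Mrpl18 at 121.9 ± 6.48 TPM. Mrpl27 came next at 77.6 ± 10.2 TPM, then Mrpl40 at 70.9 ± 4.88 TPM. The other members of the knob were Mrpl55 (43.4 ± 0.398 TPM), Mrpl46 (43.1 ± 5.08 TPM), Mrpl48 (43.0 ± 7.31 TPM) and Mrpl38 (37.9 ± 3.16 TPM). Their library values overlapped, except that Mrpl38 lay below Mrpl55 throughout.

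The Mrps18 family holds 3 paralogues that descend from 1 bacterial protein and occupy different places, Mrps18a in the large subunit and Mrps18b and Mrps18c in the small one. In the classes above Mrps18c counts as the counterpart of the bacterial protein, while Mrps18a and Mrps18b, which took other places, count as specific to mitochondria. Mrps18c had 142.05, 132.05 and 140.63 TPM in libraries 1, 2 and 3. Mrps18a had 79.94, 68.87 and 78.82 TPM, and Mrps18b 67.47, 54.41 and 63.85 TPM. The order was the same in every library, with log2 ratios of 0.86 ± 0.061 for Mrps18c over Mrps18a, 1.15 ± 0.103 for Mrps18c over Mrps18b and 0.29 ± 0.047 for Mrps18a over Mrps18b, each beyond the spread. This order holds for the TPM of whole genes only. By annotated coding transcripts alone the mean levels were close, 52.03 TPM for Mrps18c, 54.53 TPM for Mrps18a and 53.62 TPM for Mrps18b. In Mrps18c a transcript of 457 bases not annotated as coding held 61.0% of the TPM. Mean reads were 1204 for Mrps18c, 1272 for Mrps18a and 1140 for Mrps18b. The reads of all 3 were highest in library 3 and lowest in library 2 in CPM, the reads of a gene as a share of the library, with no correction for length.

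A list of 13 members whose human counterparts are linked to mitochondrial disease had a median of 56.48 ± 4.44 TPM and so lay near the middle of the family. The highest were Mrps14 (137.5 TPM), Mrpl24 and Mrps34 (96.5 ± 13.3 TPM), and the lowest were Mrps25 (22.6 ± 8.95 TPM), Mrps22 (24.01 ± 3.86 TPM) and Mrps2 (27.7 ± 0.252 TPM). Between them lay Mrps23 (79.1 ± 7.78 TPM), Mrps16 (75.4 ± 11.2 TPM), Mrpl12, Mrpl3 (55.7 ± 5.75 TPM), Mrps7 (52.3 ± 1.78 TPM), Mrps28 (40.9 ± 8.4 TPM) and Mrpl44.

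Lists of other genes of mitochondrial translation had lower medians than the members, apart from the ribosome's own proteins with other symbols. Of those, Aurkaip1 and Dap3 had 146.2 ± 9.37 and 139.9 ± 15.6 TPM, Chchd1 91.2 ± 17.2 TPM, Ptcd3 61.5 ± 7.51 TPM and Gadd45gip1 27.6 ± 3.96 TPM. The 11 translation factors had a median of 26.5 ± 2.76 TPM, with the elongation factor Tufm highest at 74.95 ± 12.3 TPM, then Tsfm (38.7 TPM) and Gfm1 (38.3 TPM), and with Mrrf (11.8 TPM) and Mtrf1 (3.81 TPM) lowest. A median of 29.26 ± 2.88 TPM was found for 21 genes of ribosome assembly and RNA modification, where C1qbp (112.8 TPM), Dhx30 (90.3 TPM) and Rbfa (80.1 TPM) led and Mrm2 (10.5 TPM) and Tfb1m (4.67 TPM) were lowest. The 17 mitochondrial aminoacyl-tRNA synthetases had a median of 24.27 ± 1.49 TPM. Lars2 (291.2 TPM), Tars2 (58.0 TPM) and Hars2 (43.3 TPM) were their highest, and Mars2 (2.70 TPM) and Wars2 (2.50 TPM) their lowest. Tfam, which packs and transcribes mitochondrial DNA, had 78.5 ± 2.64 TPM, the highest of 6 genes of RNA stability and transcription, ahead of Slirp (59.8 TPM) and Polrmt (34.1 TPM), with Tfb2m (23.0 TPM) and Tefm (18.1 TPM) lowest.

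The lowest member needs a caution of its own. Mrpl23, on chromosome 7 (chr7:142532686-142540747, plus strand, mm10), encodes a protein at the exit of the nascent chain and had 6.63, 5.66 and 7.17 TPM in libraries 1, 2 and 3. A processed pseudogene, an intronless copy made from its messenger RNA, lies on chromosome 2 (Mrpl23-ps1, ENSMUSG00000075279.5, chr2:74591330-74591909, minus strand) and was listed with 114.04, 134.96 and 158.9 TPM. The pseudogene thus held 80.1%, 81.2% and 87.7% of the reads of the pair. The annotated transcripts of both share an identical run of 540 bases, bases 151 to 690 of the 692 of Mrpl23-201, and the whole coding sequence of 438 bases lies inside it. The first 120 coding bases, shown because no read within them can tell the gene from the copy, are the same in both transcripts of GENCODE M21.

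Mrpl23-201 and Mrpl23-ps1-201, coding bases 1 to 120: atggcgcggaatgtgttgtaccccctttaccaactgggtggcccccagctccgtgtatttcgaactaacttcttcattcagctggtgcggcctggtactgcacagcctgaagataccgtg

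Counted together, the pair had 120.67, 140.62 and 166.07 TPM, a mean of 142.5 ± 22.8 TPM, which would place Mrpl23 at rank 8 of 78 members in place of rank 78. In the other deposited gene table, made on the older GENCODE M4 annotation, Mrpl23 had 20, 17 and 16 counts. The posterior SD that the authors' program gives for the assignment of reads was 9.41% of the reads of Mrpl23, the only member above 5%, where the median over members was 0.065%. Which of both loci the reads came from cannot be told apart in these tables, and the level of Mrpl23 is therefore uncertain. The 4 other pseudogenes with member-like symbols, of Mrps36 and Mrpl48, each had a mean of at most 0.47 TPM.

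**Figure D2:**
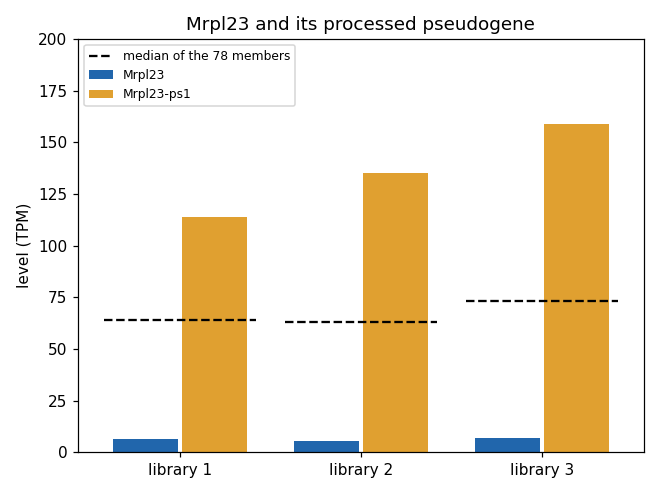
Level in TPM of Mrpl23 and of its processed pseudogene Mrpl23-ps1 in libraries 1, 2 and 3, with the median of the 78 members as a dashed line. The gene is at 6.63, 5.66 and 7.17 TPM and the pseudogene at 114.04, 134.96 and 158.9 TPM, above the median in each library.

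By share of TPM, the leading transcripts of some members were not annotated as coding. A share of TPM is not a share of reads, since TPM divides reads by length and so weighs short transcripts more. For 64 of 78 members 1 transcript held at least 50% of the gene's TPM in every library, a share of 82.1%, against 61.0% of detected protein-coding genes. For 21 members the leading transcript, by its mean share over the libraries, was not annotated as protein-coding, 26.9% of members against 13.1% of detected protein-coding genes. Of these, 6 were retained introns, 8 were targets of nonsense-mediated decay, the pathway that degrades messages with an early stop, and 7 were processed transcripts without an open reading frame. Such labels come from the annotation, and the estimates split reads between transcripts that share most of their exons.

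Among the retained introns, Mrps26-201 held 98.47%, 98.7% and 98.15% of the TPM of Mrps26 in libraries 1, 2 and 3. Mrpl57-202 held 98.64%, 98.07% and 98.4% of the TPM of Mrpl57, the third highest large subunit gene. Mrps24-201 held 91.8% ± 2.08 and Mrps25-201 71.9% ± 4.33 of their genes. In each of these genes the same transcript led in every library. The annotated coding transcripts of these genes are longer than the leading ones, with 4278 against 1057 bases in Mrps26, 2877 against 519 in Mrpl57, 995 against 700 in Mrps24 and 6073 against 565 in Mrps25. A TPM divides reads by length, so the level of such a gene depends on the transcript its reads are assigned to. Less settled were Mrps5-206, a retained intron that led its gene with 32.6% ± 0.699, and the retained intron of Mrpl23 with the highest mean share, which had 53.77%, 75.8% and 35.07% of the TPM of that gene. In library 3 a coding transcript of Mrpl23 was ahead of it with 50.31%.

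Transcripts marked for nonsense-mediated decay led in Mrps14 (Mrps14-201, 93.8% ± 1.2), Mrpl32 (Mrpl32-201, 83.9% ± 1.87), Mrpl35 (Mrpl35-202, 83.2% ± 1.52) and Mrps11 (73.6% ± 2.68). They led too in Mrpl13 (Mrpl13-202, 72.3% ± 3.88), Mrpl3 (Mrpl3-204, 67.6% ± 2.38), Mrps18c (Mrps18c-206, 61.0% ± 4.76) and Mrpl48 (Mrpl48-202, 38.6% ± 7.16). Processed transcripts led in Mrps16 (Mrps16-202, 97.8% ± 0.476) and Mrpl47 (Mrpl47-202, 81.2% ± 0.931), with lower shares in Mrpl51, Mrpl20, Mrpl15, Mrpl19 and Mrps35. In some of these genes the coding transcript is much longer than the leading one, with 3364 against 523 bases in Mrpl47, 5000 against 419 in Mrpl19 and 3721 against 707 in Mrpl35. In others, such as Mrpl20 and Mrpl48, some coding transcripts are shorter. The leading share of TPM therefore does not show where most reads lay. Annotated coding transcripts held under 50% of the TPM in 22 members, 28.2% of them against 15.9% of detected protein-coding genes. The median share of coding transcripts was 82.5% in members and 86.3% in detected protein-coding genes, and 31 members had over 90% coding transcripts. By coding transcripts alone the median member level was 43.49 TPM, and 10 members, among them Mrps16 (1.61 TPM), Mrpl32 (1.67 TPM) and Mrps26 (1.70 TPM), fell under 5 TPM.

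**Figure D3:**
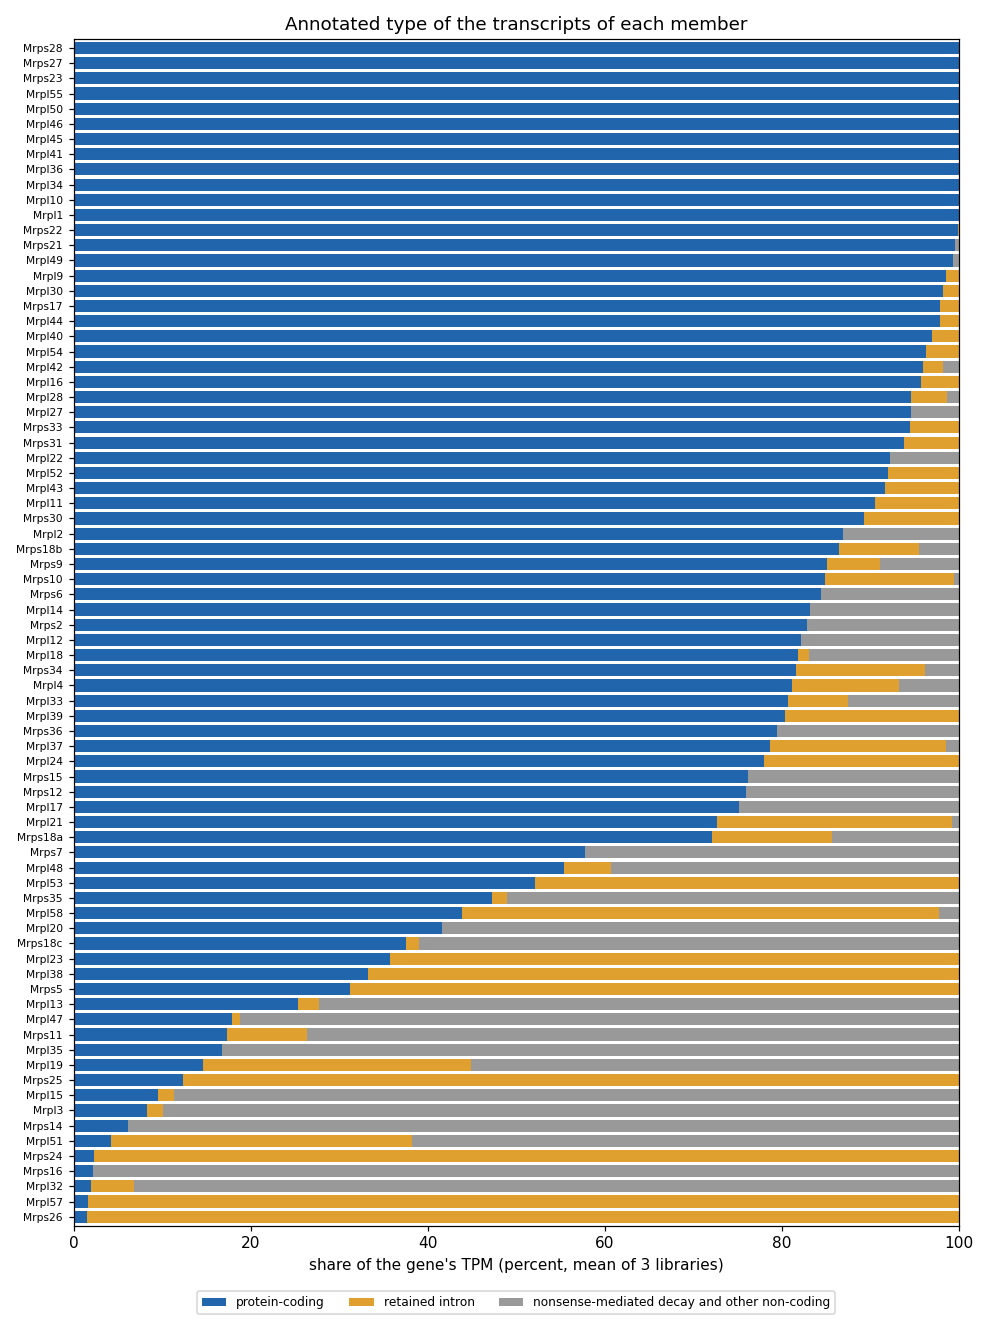
Share of each member's TPM, in percent and as a mean of 3 libraries, held by transcripts annotated as protein-coding, as retained introns, and as nonsense-mediated decay or other non-coding types. The median coding share is 82.5%, and 22 genes at the foot of the plot, from Mrps35 to Mrps26, have under 50%.

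In 14 members no single transcript reached 50% of the TPM in every library, which beside Mrps5, Mrpl23, Mrpl48 and Mrps35 were Mrpl1, Mrpl2, Mrpl24, Mrpl38, Mrpl42, Mrpl53, Mrpl55, Mrpl58, Mrps10 and Mrps17. In Mrpl42 the leading transcript had 41.26% in library 1 and 76.48% and 79.21% in libraries 2 and 3. In Mrpl38 the coding transcript Mrpl38-201 had 48.28%, 34.32% and 17.26%, and retained introns held the rest. Retained introns held 22.0% of Mrpl24, 47.9% of Mrpl53 and 53.9% of Mrpl58. In Mrpl1, Mrpl2, Mrpl42, Mrpl55, Mrps10 and Mrps17 the split was mainly between coding transcripts.

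Many members start next to another gene that runs the other way. In 29 of 78 members, 37.2%, a protein-coding gene detected at 1 TPM began within 1000 bases on the opposite strand, against 15.2% of the 10601 detected protein-coding genes. Mrps11 and Mrpl46, both members, form such a pair on chromosome 7, with starts that overlap by 412 bases, and 1 protein goes to each subunit. Their levels were close, 45.25, 42.2 and 53.54 TPM for Mrps11 and 40.99, 39.49 and 48.94 TPM for Mrpl46 in libraries 1, 2 and 3. The log2 ratio of Mrps11 to Mrpl46 was 0.12 ± 0.024. Among the 29 neighbours were also Ndufs6 (142.9 TPM) beside Mrpl36 and Ndufb5 (158.0 TPM) beside Mrpl47, both of respiratory complex I, Sars2 (15.5 TPM), a mitochondrial tRNA synthetase, beside Mrps12, Twnk (10.6 TPM), the mitochondrial DNA helicase, beside Mrpl43, and Fau (878.8 TPM), of the cytosolic ribosome, beside Mrpl49. These were named after their values were seen, and most of the other neighbours, such as Tcp1, Psma2, Hira and Rab6a, are known for roles outside mitochondria and ribosomes. Most neighbours were lower than the member, and 8 of 29 were higher.

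Exons of 24 members overlap those of another gene detected at 1 TPM, in 28 pairs, and the shared reads make their values less certain. Whether the counting used strand is not given in the sources used here, and without it reads from overlapping genes on opposite strands cannot be told apart. For 3 members the overlap covered over 50% of their exonic bases. Of Mrpl53, 88.0% is shared with Gm42688 on the same strand (7.88 TPM). Of Mrps25, 69.8% is shared with Nr2c2 (59.5 TPM), and of Mrps34, 63.4% with Mapk8ip3 (30.1 TPM), both on the opposite strand. Further overlaps between 20% and 40% of the member were those of Mrps34 with Nme3, Mrpl19 with Gcfc2, Mrpl43 with Twnk, Mrps18b with Gm16279, Mrpl24 with Rrnad1 and Mrps18c with Gm43511. The other members concerned, with under 20% each, were Mrps24, Mrpl47, Mrpl46, Mrps11, Mrpl14, Mrps6, Mrpl18, Mrpl48, Mrpl44, Mrpl27, Mrps7, Mrpl21, Mrpl49, Mrpl13, Mrpl36 and Mrpl58.

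Nuclear genes of mitochondrial function are known for promoters without a TATA box that carry sites of NRF1, of the ETS factor GABPA and of YY1. A 300-base window, from 250 bases before to 50 bases after the RefSeq start (GRCm38.p6), was found for 69 of 78 members, and in 53 of them the start lay within 100 bases of that of the main GENCODE transcript. Each motif was searched by its letters on both strands. The ETS letters CCGGAAG stood in 26 of 69 member windows, 37.7%, against 21.4% of 8420 detected protein-coding genes and 8.86% of all windows. The YY1 letters, AA and ATGGCGGC with any base between them, stood in 7, 10.1%, against 2.97% and 0.986%, and the NRF1 letters, GCGCA and GCGC with any base between them, in 13, 18.8%, against 11.9% and 4.6%. Other letters were no more frequent than in detected genes. The E-box CACGTG stood in 7.25% against 10.5%, CCAAT in 39.1% against 39.3%, TATAAA in 5.8% against 6.53% and the CRE letters TGACGTCA in 2.9% against 3.4%. Both the ETS and the NRF1 letters stood in 4 windows, both the ETS and the YY1 letters in 3, and at least 1 of these 3 motifs in 39. None of the searched motifs contains another. Such a match describes the letters and says nothing of binding.

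Windows of 4 members are shown because they hold the frequent letters and belong to members at the ends of the range, Mrpl52, Mrpl57 and Mrps21 among the highest and Mrps27 the lowest of the small subunit. Capitals mark ETS, NRF1 and YY1 letters as read on the strand of the gene. The transcription start of RefSeq is the base that follows the first 250 of each window. The windows are chr14:54426659-54426958 (plus strand) for Mrpl52, chr14:57825989-57826288 (plus) for Mrpl57, chr3:95871465-95871764 (minus) for Mrps21 and chr13:99344536-99344835 (plus) for Mrps27.
Mrpl52: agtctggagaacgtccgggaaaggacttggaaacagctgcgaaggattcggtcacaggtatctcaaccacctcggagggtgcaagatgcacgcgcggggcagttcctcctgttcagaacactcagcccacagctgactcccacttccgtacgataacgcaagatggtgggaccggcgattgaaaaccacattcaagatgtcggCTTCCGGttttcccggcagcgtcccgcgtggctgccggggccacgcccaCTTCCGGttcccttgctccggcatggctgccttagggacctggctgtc
Mrpl57: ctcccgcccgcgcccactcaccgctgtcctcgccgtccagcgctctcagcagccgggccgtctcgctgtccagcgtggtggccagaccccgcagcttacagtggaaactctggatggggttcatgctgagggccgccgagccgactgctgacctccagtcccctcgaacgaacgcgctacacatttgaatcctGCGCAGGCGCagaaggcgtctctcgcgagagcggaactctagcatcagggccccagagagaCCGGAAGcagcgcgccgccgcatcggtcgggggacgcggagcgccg
Mrps21: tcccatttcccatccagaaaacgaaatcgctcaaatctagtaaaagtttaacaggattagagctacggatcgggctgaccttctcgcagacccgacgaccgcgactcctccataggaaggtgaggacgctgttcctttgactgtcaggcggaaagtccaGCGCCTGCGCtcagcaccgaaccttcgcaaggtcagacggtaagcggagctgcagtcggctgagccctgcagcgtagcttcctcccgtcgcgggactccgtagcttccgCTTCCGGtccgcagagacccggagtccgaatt
Mrps27: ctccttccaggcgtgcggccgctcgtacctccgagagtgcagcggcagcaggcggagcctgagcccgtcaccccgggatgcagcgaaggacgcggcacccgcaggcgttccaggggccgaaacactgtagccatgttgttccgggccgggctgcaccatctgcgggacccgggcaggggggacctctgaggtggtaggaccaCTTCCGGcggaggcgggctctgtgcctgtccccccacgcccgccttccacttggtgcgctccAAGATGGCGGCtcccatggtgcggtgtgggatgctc

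In Mrpl52, the highest member, the ETS letters stood at 47 bases before the start and again at base 3 after it. In Mrpl57 and Mrps21 the NRF1 letters preceded the start by 57 and 91 bases and the ETS letters followed it at bases 5 and 19, although both starts lay away from that of the main GENCODE transcript, by 191 and 895 bases. In Mrps27 the ETS letters preceded the start by 48 bases and the YY1 letters, which hold an ATG, followed it at base 15. The 26 members with the ETS letters had a median of 78.46 ± 6.84 TPM and the 43 members without them 53.61 ± 1.97 TPM. Since Mrps27 and Mrpl52 both carry the letters, members with them ran from 16.33 to 198.2 TPM and overlapped those without, which ran from 6.487 to 155.0 TPM.

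The libraries differed in the members by little in size and mostly in 1 direction. In a chi-square test of the reads of the 3 libraries against counting noise, with Benjamini-Hochberg adjustment over the 17190 genes with a mean of 10 reads or more, 71 of 78 members passed, where 80.0% of all genes tested passed and 88.2% of detected protein-coding genes. This test compares the libraries with each other and no conditions, and in such bulk RNA fewer cells of a type and less RNA per cell cannot be told apart. In CPM, 70 of 78 members were highest in library 3, where 39.1% of all genes tested were. Of these members 64 passed, where 31.4% of all genes passed and were highest there. Libraries 1 and 2 were the highest in 3 and 5 members, against 31.6% and 29.3% of all genes. Of these members 3 and 4 passed, where 25.3% and 23.3% of all genes passed and were highest there. The lowest library was 2 for 44 members, of which 41 passed (23.8% of all genes), 1 for 31, of which 28 passed (24.4%), and 3 for 3, of which 2 passed (31.3%). Without library 3, 42 of 78 members passed between libraries 1 and 2, where 54.2% of genes did.

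The median log2 difference of a library from the mean of the other libraries was -0.10, -0.19 and 0.31 for libraries 1, 2 and 3 over members, and 0.01, 0.00 and 0.02 over all genes tested. Library 3 stood above the others by more than 0.5 in 10 members and below them in 3, and the share of all genes past these limits was not counted. The same direction was seen in some other gene sets but not in all. In library 3, 79 of 81 cytosolic ribosomal protein genes and 73 of 78 respiratory chain genes were highest, with median differences of 0.46 and 0.34. All 5 ribosome proteins with other symbols (0.36) and 15 of 21 genes of ribosome assembly and RNA modification (0.16) were highest there. Only 4 of 11 mitochondrial translation factors were (0.08). Of 17 mitochondrial aminoacyl-tRNA synthetases 7 were highest and 8 lowest in library 3, with a median difference of -0.08. On TPM, scaled to a fixed sum and corrected for length, the difference of library 3 was 0.18 over members, and 49 of 78 were highest there. Over detected protein-coding genes it was -0.15, with 22.5% highest there. Over all genes tested it was -0.09, with 29.2% highest there, so that the gap between members and all genes was of like width.

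Transcript length moved with this difference. The main transcripts of members had a median length of 840 bases, against 2340 bases in detected protein-coding genes, and the Spearman correlation of the library 3 difference with length was -0.394 across 78 members and -0.257 across all 17190 genes, which share the same libraries. Of 1532 other detected protein-coding genes between the quartiles of member lengths, 863 were highest in library 3, with a median difference of 0.17. With a trend in length and GC content taken out of all genes, the median difference of members in library 3 was 0.14 against -0.06 over all genes, and 48 of 78 were highest there against 31.9% of genes. The part of length, RNA quality or cell make-up in the remainder was not tested.

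**Figure D4:**
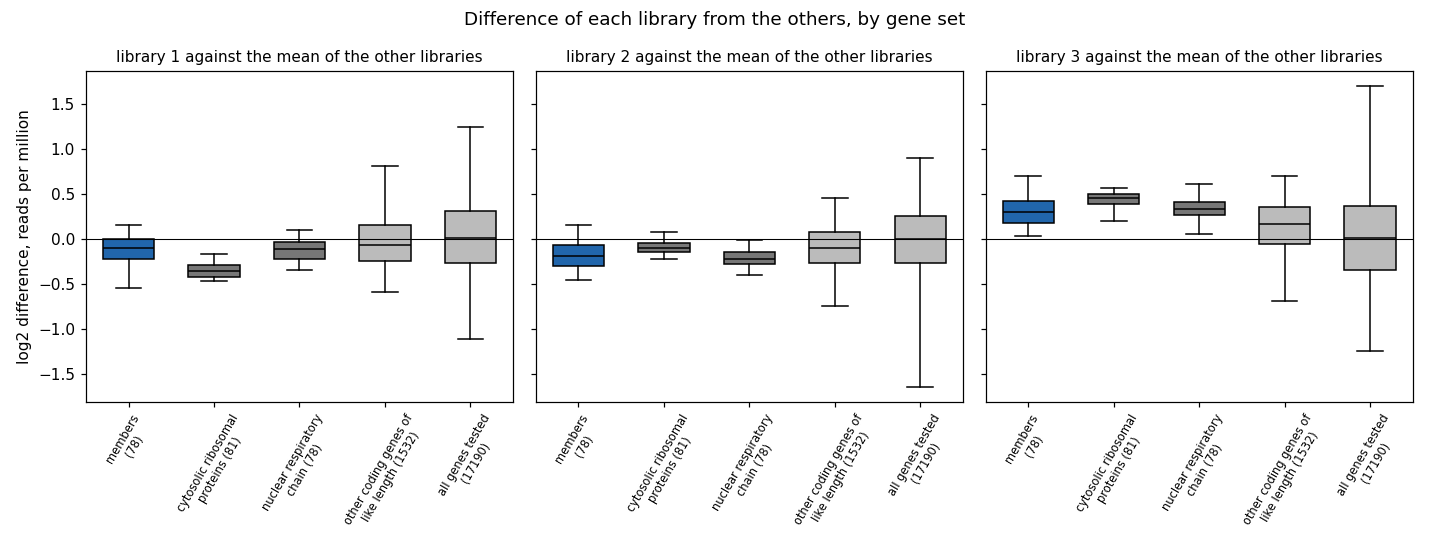
Log2 difference in CPM of each library from the mean of the other libraries, as boxes (median and quartiles, whiskers at the 5th and 95th percentiles) for the 78 members, 81 cytosolic ribosomal protein genes, 78 respiratory chain genes, 1532 other coding genes of like length and all 17190 genes tested. In library 3 the member median is 0.31 and that of all genes 0.02, with the cytosolic ribosomal protein genes at 0.46.

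**Figure D5:**
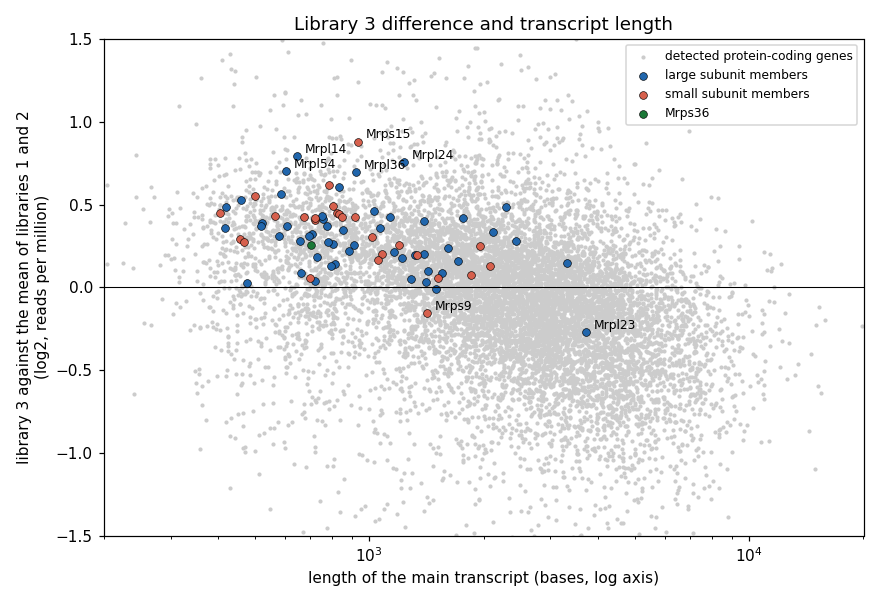
Log2 difference of library 3 from the mean of libraries 1 and 2 against the length of the main transcript (log axis), for members of the large and small subunit, Mrps36 and, in grey, all detected protein-coding genes. Mrps15, Mrpl14, Mrpl24, Mrpl54 and Mrpl36 lie highest among members. Mrpl23 and Mrps9 lie below 0, and Mrpl37 lies just below it at -0.008.

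Single members moved more than the family. The largest ratio of highest to lowest library in CPM was that of Mrpl24, which had 64.36, 103.74 and 126.77 TPM in libraries 1, 2 and 3. That ratio was 2.11, with an adjusted p of 1.89e-113 in the chi-square test, and Mrpl24 was the only member above 2-fold, where 10.4% of all genes with 100 reads or more were. Rrnad1, which shares 26.3% of the exonic bases of Mrpl24, had a mean of 23.2 TPM. Mrpl14, a protein of the face between the subunits, had 38.89, 50.18 and 71.93 TPM, a ratio of 1.92. Mrps15 had 53.45, 56.28 and 88.97 TPM, a ratio of 1.89, and was high in library 3 alone. Mrpl54 followed with 94.81, 76.4 and 125.12 TPM (1.81) and Mrps25 with a ratio of 1.79.

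The members with the 8 largest chi-square values were Mrpl24, Mrps15, Mrpl36, Mrpl54, Mrpl30, Mrps17, Mrpl17 and Mrpl14, and each was highest in library 3 in CPM. Mrpl36 had 75.56, 94.06 and 122.03 TPM, Mrps17 70.15, 96.51 and 108.14 TPM and Mrpl30 137.68, 141.18 and 186.11 TPM. In Mrpl24, Mrpl36, Mrps17 and Mrpl14 library 2 lay between the other libraries, whereas in Mrps15, Mrpl30 and Mrpl17 libraries 1 and 2 were close to each other. Mrpl54 was lowest in library 2.

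At the other end, 7 members did not pass the test, Mrpl1, Mrpl4, Mrpl22, Mrpl37, Mrpl55, Mrps24 and Mrps27. Mrpl37 differed least in CPM, with a ratio of 1.01 and an adjusted p of 0.961, at 62.25, 61.43 and 55.66 TPM. Mrpl22 followed with a ratio of 1.03, Mrpl4 with 1.06, Mrps24 with 1.07 and Mrpl33 with 1.08. The 8 members that were not highest in library 3 in CPM included Mrps9, with 74.23, 61.22 and 55.79 TPM, and Mrpl44, with 38.38, 30.9 and 33.15 TPM, both highest in library 1.

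Over all 78 members the median ratio of highest to lowest library was 1.314, and over all genes with 100 reads or more 1.334. The median biological coefficient of variation is an edgeR estimate of the variation between libraries beyond counting noise, drawn for each gene towards the values of other genes. It was 0.19 for members, 0.196 for detected protein-coding genes and 0.188 for cytosolic ribosomal protein genes. Over all genes tested, which include genes of few reads, it was 0.284. The 7 members that did not pass the chi-square test still had values from 0.143 (Mrpl4) to 0.212 (Mrps27). The likeness of these medians may therefore come in part from the estimate. A member had between 281 and 2750 reads on average. The SD of the TPM was under 10% of the mean in 36 members and over 20% in 8.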

How the data were processed

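The libraries were quantified by the authors on mm10. Per the file headers, the gene and transcript tables give an expected count, TPM, FPKM, the percent of a gene's TPM held by each transcript, and posterior means with scores for their SD and bounds, on GENCODE M21. A second deposited gene table gives whole-number counts on GENCODE M4. The aligner, the program and the use of strand were not stated in the labels or headers. Gene reads per library are given in the report, and 0.166% to 0.229% of reads fell on entries that are no mouse gene (spike-ins and transfer RNA) and were left out.

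Expected counts were rounded and scaled with edgeR 4.0.16 (TMM); with 1 group and no contrast, its quasi-likelihood test could not be fitted, so a chi-square test (2 degrees of freedom) was used, checked on simulated data. Log2 differences were taken on CPM with a pseudocount of 0.5 reads and log2 TPM ratios a pseudocount of 1 TPM. DESeq2 1.42.0 size factors, other filters, posterior mean values, the M4 table, a length and GC correction, and leaving out each library were alternatives. Intervals and tests cover counting error only.

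The members and lists were chosen with earlier results of these data known. Genes were named by their rank of level, library ratio or chi-square, transcript type, overlap, or place in the lists. The pair of Mrps11 and Mrpl46, the neighbours named and the printed Mrpl23 bases were chosen after their values were seen.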

Additional observations from a re-analysis of the deposited data

How the results depend on the processing

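No paired analysis was possible because the samples form a single group. Of 86 alternative values, 70 were classed as the same, by rules that differed between results. Counts had to stay within a set fold of the main count, which held 50 and not 42 members beside 71 in the chi-square test. Subunit and class ratios had to keep direction and side of the 2 SD rule. Medians and library differences had to move by less than the SD between libraries, and differences had to keep their sign. The highest to lowest ratio had to move by less than the SD of its values with a library left out. All 78 members stayed above the detection threshold at 5 TPM, on posterior mean TPM and at 1 FPKM. A threshold of 0.1 TPM or leaving out a library could give no other count. Keeping only detected members, or changing the read filter, could not change the member medians, ratios or library differences. These fixed values are counted among the 70. The median member level was 43.31 on FPKM, which follows from its scale. The specific to shared log2 ratio passed the 2 SD rule as a mean log2 level (-0.24), and without library 1, so that leaving out libraries gave -0.23 to -0.12; the cause was not tested. Leaving out libraries gave 42 to 65 members past the chi-square threshold, where 54.2% to 66.3% of all genes passed, and the M4 table gave 50 of 77, where 65.3% did. The log2 difference of library 1 ran from -0.275 to 0.0674 with a library left out, which turned its sign without library 3. For library 2 it ran from -0.332 to -0.0674, and was -0.0432 with the length and GC trend removed. For library 3 it was 0.27 to 0.33, 0.14 with that trend removed and 0.18 on TPM (chosen after seeing the data). The highest to lowest ratio was 1.21 with the trend removed, 1.22 in the M4 table and 1.11 to 1.26 with a library left out, where fewer libraries bound it. At 75% instead of 50%, 39 members had a leading transcript in every library. With Mrpl23 and its pseudogene summed, also chosen after seeing the data, the large to small ratio was -0.17.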
